A study of Mus musculus with 4 samples.

Results

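The genes of end joining, excision and mismatch repair described here are a list of 33 genes given by symbol, out of 32285 genes in the deposited tables. They were read from single-cell RNA sequencing of mouse ovaries, summed and gene by gene, in cell classes named from marker genes. By role, 6 of the 33 belong to non-homologous end joining, 13 to base excision and single-strand break repair, 12 to nucleotide excision repair and 2 to mismatch repair. Another 43 genes of the same pathways served as a comparison list.

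The series held 4 libraries, 1 per group, from prepubertal mice dosed from postnatal day 25. The control group received PBS/saline, the doxorubicin group 2 weekly doses of 3 mg/kg, and the AMH group 0.75 mg/kg of recombinant human anti-Müllerian hormone. A combined group received doxorubicin at 3 mg/kg with AMH at 0.75 mg/kg and is written doxorubicin+AMH. Doxorubicin is an anthracycline chemotherapy drug that poisons topoisomerase II, and AMH is a hormone of growing follicles. Ovaries were taken 4 hours after the last doxorubicin dose. Each library pooled 1 ovary from each of 5 animals before dissociation. No comparison of treatments below therefore carries an error between animals, and treatment and library cannot be told apart. The strain, the route of dosing and any genotype are not given in the sources used here.

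End joining rejoins broken DNA ends: the Ku pair Xrcc5 and Xrcc6 binds the ends, the nuclease Dclre1c trims them, and Xrcc4, Nhej1 and Lig4 seal them. Base excision repair replaces damaged bases after a glycosylase removes them, and the same enzymes close single-strand breaks. Nucleotide excision repair cuts out bulky lesions, and mismatch repair corrects replication errors. In the ovary the granulosa cells around the oocyte divide fast while follicles grow, whereas most stroma and vessel cells divide little.

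The libraries held 7141 to 9478 cells and 138647495 to 178279122 UMIs, with median depths of 9834.5 to 13575 UMIs per cell. UMIs are tags that let each captured transcript be counted a single time. After filtering, 6040 to 7956 cells per library were left, and library pairs shared 11 to 24 cell barcodes. Clusters were named "X-like" from marker lists, and the granulosa-like ones had 5 to 9 of their 9 markers raised. In all, 10 classes had at least 30 cells in each library, 7 of them at least 50, and no cluster met the rule for oocytes. A pair of granulosa-like clusters, with 165 and 77 cells from the doxorubicin library, held at most 2 cells of any other. The theca-like class joined a cluster of 682 control, 448 doxorubicin, 68 doxorubicin+AMH and 63 AMH cells with one of 39, 30, 561 and 733. The 26 listed p53 targets served as a check of the drug label: in granulosa-like cells their median log2 ratio of doxorubicin over control was 0.35, against -0.02 over all genes, and that of doxorubicin+AMH over AMH was 0.08, against -0.02. Levels are CPM, UMIs per 1000000 UMIs summed over a class in a library. They are compared between libraries or classes, and levels of different genes are not compared as results. Intervals are 95%, cover counting error only and are not adjusted for the number of genes.

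The sequences that bear on the main result below are the RefSeq promoters of Lig1, Ung and Msh6, the 3 members that were higher in S-type granulosa-like cells in every setting tried. The promoter of Nthl1 is shown as a contrast. Each run covers 250 bases before to 50 bases after a transcription start, on the plus strand of GRCm38.p6, 5′ to 3′. Capitals mark a match to any of the E2F-type letters TTTCGCGC, TTTGGCGC or GGCGGGAA, searched on both strands. E2F factors are transcription factors of S-phase genes. The runs lie at chr7:13278576-13278875 for Lig1 (1 of its 3 RefSeq starts), chr17:87974800-87975099 for Msh6, chr5:114130185-114130484 for Ung and chr17:24632432-24632731 for Nthl1.
Lig1: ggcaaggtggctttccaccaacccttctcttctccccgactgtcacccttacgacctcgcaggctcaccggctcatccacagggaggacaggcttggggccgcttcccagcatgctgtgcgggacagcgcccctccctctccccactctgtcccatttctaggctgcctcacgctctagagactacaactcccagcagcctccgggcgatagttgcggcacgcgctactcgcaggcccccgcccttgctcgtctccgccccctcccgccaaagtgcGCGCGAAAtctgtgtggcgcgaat
Msh6: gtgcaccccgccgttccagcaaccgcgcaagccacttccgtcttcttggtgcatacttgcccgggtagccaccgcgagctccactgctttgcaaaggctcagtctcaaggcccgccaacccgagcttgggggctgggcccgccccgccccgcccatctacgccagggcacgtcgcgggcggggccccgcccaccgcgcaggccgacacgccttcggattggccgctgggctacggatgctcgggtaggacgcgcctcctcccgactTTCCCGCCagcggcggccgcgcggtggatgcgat
Ung: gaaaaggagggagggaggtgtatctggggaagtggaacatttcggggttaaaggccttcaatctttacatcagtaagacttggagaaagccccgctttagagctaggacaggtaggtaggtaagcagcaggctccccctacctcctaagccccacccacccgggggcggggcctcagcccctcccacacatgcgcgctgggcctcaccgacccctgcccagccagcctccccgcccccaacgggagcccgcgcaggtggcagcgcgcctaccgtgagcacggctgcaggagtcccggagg
Nthl1: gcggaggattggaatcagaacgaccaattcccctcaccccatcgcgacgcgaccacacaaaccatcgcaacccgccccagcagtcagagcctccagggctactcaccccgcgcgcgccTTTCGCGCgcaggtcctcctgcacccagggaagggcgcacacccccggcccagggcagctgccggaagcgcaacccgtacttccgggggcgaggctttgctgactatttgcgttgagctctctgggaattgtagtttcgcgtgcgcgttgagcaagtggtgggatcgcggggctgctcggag
Lig1 carried GCGCGAAA 26 bases after the start, Msh6 TTCCCGCC 16 bases after it, and Nthl1 TTTCGCGC 132 bases before it. The window of Ung held none of these letters, nor did those of the other 2 starts of Lig1. RefSeq promoters were matched for 29 of the 33 members, all but Polb, Xpc, Ddb2 and Ercc3. Of those 29, 3 had a match, or 8.82% of their 34 promoters, against 2.96% of all 32851 mouse promoters of the same length. On either strand, the CHR letters TTTGAA of late cell cycle genes were in 1 of the 34 (2.94%, against 17.9% of all promoters), CCAAT in 18 (52.9% against 37.4%) and a p53 half-site in 1 (2.94% against 8.36%). A match is a description of letters, not of a bound site. The genes lie at chr7:13277283-13311433 (Lig1), chr17:87975062-87990892 (Msh6) and chr5:114130386-114139323 (Ung), all on the plus strand of GRCm38.

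Summed over the 33 genes, granulosa-like cells held the highest level of repair transcripts of the 10 classes. Their sum lay between 935 CPM (AMH library) and 1024 CPM (control library), above the highest sum of any other class, 845 CPM in macrophage-like cells of the control library. Stroma-like cells held 708 to 757 CPM, theca-like cells 673 to 749 CPM and mural smooth muscle-like cells 653 to 693 CPM. Erythroid-like cells, with 93.2 to 206 CPM, were lowest, and no member reached 200 UMIs there. All 33 members reached 200 UMIs over the 4 libraries in granulosa-like cells, 32 in stroma-like, 31 in theca-like and 28 in mural cells. In the other classes 6 to 13 members did.

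Of the 33 members, 11 had their highest mean level in granulosa-like cells, as did 17.5% of 17664 genes. Lymphatic endothelial-like cells were first for 7, surface epithelial-like for 6, mural for 3 and blood endothelial-like and macrophage-like for 2 each. Stroma-like and theca-like cells were first for 1 each. No share of all genes was counted for those classes, and first places needed no minimum of UMIs. Only 6 members reached the UMI count given above in lymphatic endothelial-like and 9 in surface epithelial-like cells. Ratios of first to next class ran from 1.01 (Ercc8) to 1.53 (Xrcc4) and from 1.007 (Neil1) to 1.35 (Nhej1) there. These counts are not read as class preferences. Every library of the highest class lay above every library of the other classes, erythroid-like cells left aside, for 28% of 17664 genes. It did for 8 of the 33 members. Those were Lig1, Lig3, Parp1 and Apex1 in granulosa-like cells, Xrcc4 in lymphatic endothelial-like, Xpa in mural, and Dclre1c and Parp2 in macrophage-like cells. These class differences are descriptions, since the classes were made from the same cells.

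**Figure D1:**
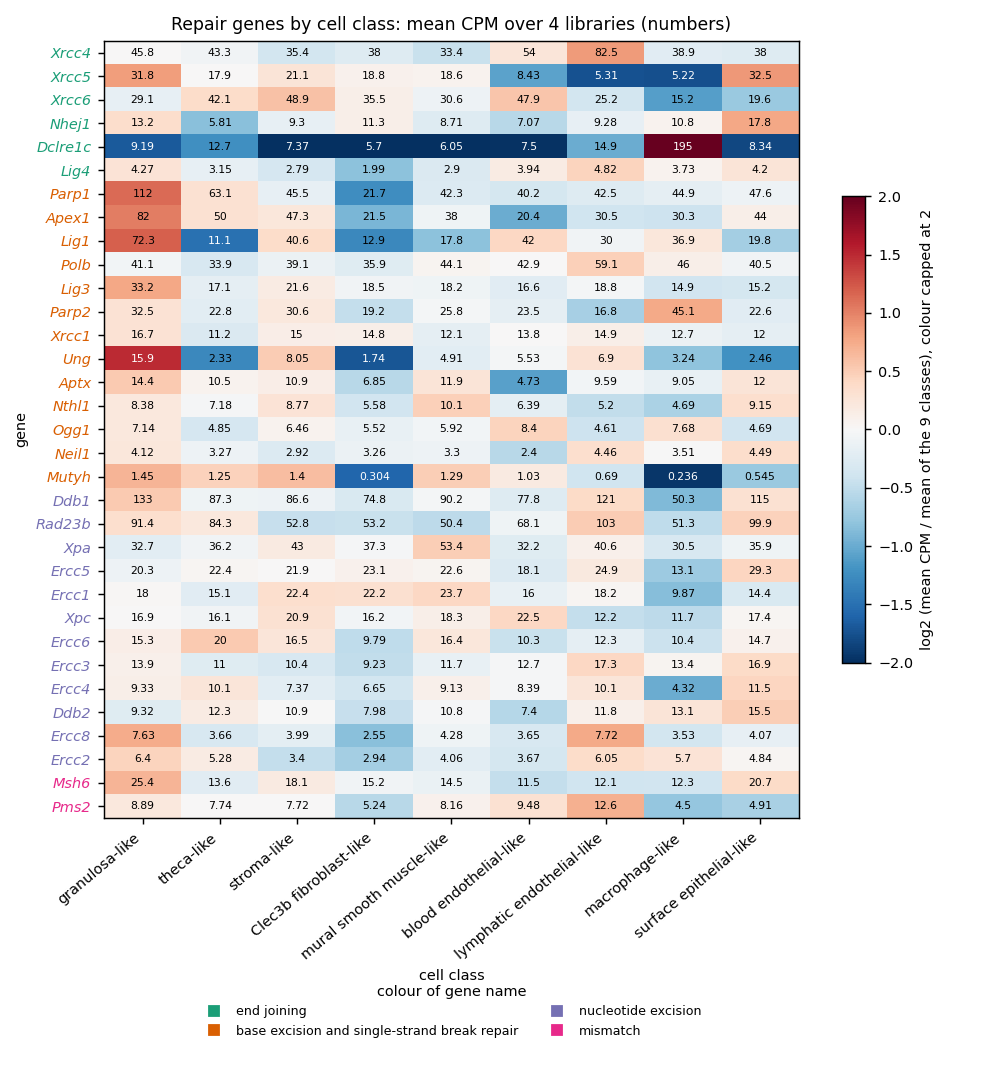
Mean CPM over the 4 libraries (numbers) of each repair gene (rows) in 9 cell classes (columns). Colour is the log2 ratio of a class to the mean of the 9 classes, capped at 2 in either direction. Red cells mark Lig1, Parp1, Apex1 and Ung in the granulosa-like column and Dclre1c, at 195 CPM, in the macrophage-like column.

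Dclre1c, which encodes the end-trimming nuclease Artemis, had the widest spread of any member. In macrophage-like cells it stood at 281 CPM in the control, 194 in the doxorubicin, 141 in the doxorubicin+AMH and 162 in the AMH library, from 435, 144, 149 and 263 UMIs. Among the other compared classes, erythroid-like cells left aside, none exceeded 18.9 CPM in any library. The next class, lymphatic endothelial-like cells, had a mean 13.0 times lower. Lymphocyte-like and oviduct epithelial-like cells, with fewer than 30 cells in a library, were not compared. In macrophage-like cells the control library was highest: AMH over control was 0.577 (0.493 to 0.674) and doxorubicin over control 0.692 (0.569 to 0.837). Suv39h2, which overlaps Dclre1c on the other strand, had 6.75 to 19.4 CPM in the same cells. Dclre1c lies at chr2:3424131-3464130 (GRCm38, plus strand). The other end joining genes did not share this pattern, for Xrcc5 and Xrcc6 had the lowest means of the 9 classes in macrophage-like cells, at 5.22 and 15.2 CPM.

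**Figure D2:**
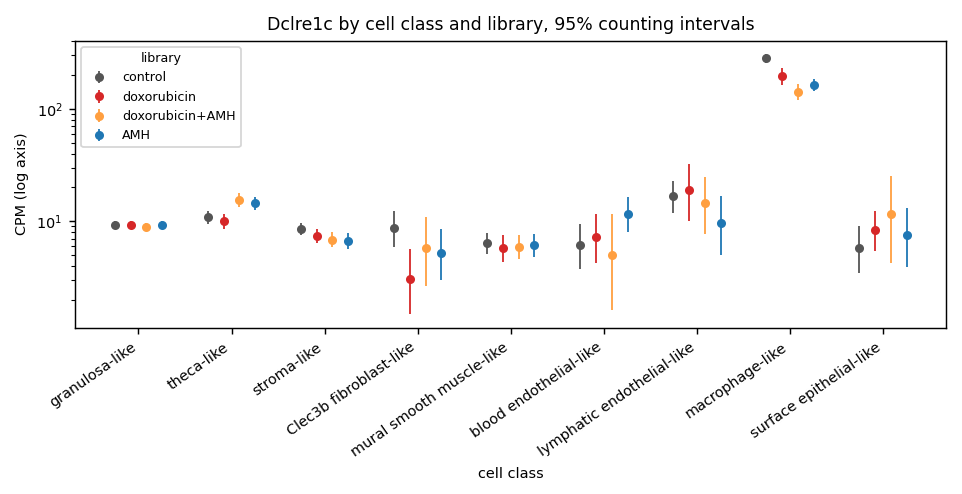
Dclre1c level (CPM, log axis) in 9 cell classes, 1 point per library, with 95% Poisson intervals. The 4 macrophage-like points, 141 to 281 CPM, sit above every point of the other classes, none of which passes 18.9 CPM.

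In the base excision group, Parp1, which senses strand breaks and adds poly(ADP-ribose), averaged 112 CPM in granulosa-like and 63.1 in theca-like cells, the next class. Apex1, the main abasic-site endonuclease, averaged 82.0 against 49.98 CPM in the same order. Lig1, the replicative DNA ligase, averaged 72.3 CPM in granulosa-like cells, 42.0 in blood endothelial-like and 11.1 in theca-like cells, its lowest class. Lig3, the ligase partner of Xrcc1, averaged 33.2 CPM in granulosa-like against 21.6 in stroma-like cells. Ung, the glycosylase that removes uracil from DNA, averaged 15.9 CPM in granulosa-like and 8.05 in stroma-like cells, and its libraries overlapped between classes. For Parp2, a relative of Parp1, macrophage-like cells came first with 45.1 CPM against 32.5 in granulosa-like cells.

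Xrcc4, the scaffold that holds Lig4, averaged 82.5 CPM in lymphatic endothelial-like cells, from 76.3 to 85.6 across libraries, and 54.0 in blood endothelial-like cells. Xpa, which verifies the lesion in nucleotide excision, averaged 53.4 CPM in mural cells and 43.0 in stroma-like cells. The remaining nucleotide excision genes and both mismatch genes overlapped between their first class and others.

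Granulosa-like cells could be split by cycle state in every library, which gave the only comparison with replicates here. Each cell was thinned to 2000 UMIs. Cells with at least 5 UMIs of 31 S and 50 G2/M genes, none of them a repair gene of the lists, were called cycling, and those with at most 1 non-cycling. The control library had 906 cycling and 243 non-cycling cells, the doxorubicin library 969 and 208, the doxorubicin+AMH library 1143 and 205 and the AMH library 1273 and 218. In each library 339 to 520 of all thinned cells lay at 4 or 5 UMIs, on either side of the threshold. The test was edgeR's quasi-likelihood test on sums per library and state with the library as block. The 4 libraries differ in treatment, so its p-values measure how evenly a state difference held across them.

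Of the 33 members, 12 were higher and 4 lower in cycling cells at an adjusted p under 0.05. Over all 15726 genes tested, 22.7% were higher and 19.3% lower. The median log2 difference was 0.15 over the members and 0.01 over all genes. By role, the higher genes were 8 of 13 in base excision, 2 of 2 in mismatch repair, 2 of 6 in end joining and 0 of 12 in nucleotide excision. The lower ones were 3 nucleotide excision genes and 1 base excision gene.

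Lig1 had the largest difference of the 33. It stood at 106, 105, 115 and 91.6 CPM in cycling cells and at 24.4, 18.4, 31.8 and 24.7 CPM in non-cycling cells of the control, doxorubicin, doxorubicin+AMH and AMH libraries. The states did not overlap, and the log2 difference was 2.12 ± 0.09 (SE, edgeR adjusted p = 3.34e-09), higher in 4 of 4 libraries. Ung stood at 20.2, 27.4, 20.6 and 17.2 CPM in cycling and 6.80, 5.70, 6.64 and 6.13 CPM in non-cycling cells. Its log2 difference was 1.79 ± 0.13 (edgeR adjusted p = 3.36e-07), again with no overlap. Msh6, which recognises mismatched bases, stood at 32.2, 36.4, 30.0 and 25.7 CPM against 19.0, 15.2, 14.9 and 12.3 CPM. Its log2 difference was 1.07 ± 0.09 (edgeR adjusted p = 1.93e-06), and the lowest cycling value lay above the highest non-cycling one.

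Mutyh, the glycosylase that removes adenine opposite oxidised guanine, had few UMIs: 1.92, 2.28, 1.74 and 1.86 CPM in cycling against 0.633, 0.815, 0.350 and 0.471 CPM in non-cycling cells. Its log2 difference was 1.82 ± 0.32 (edgeR adjusted p = 0.00055). Pms2, the endonuclease subunit of mismatch repair, stood 0.87 ± 0.14 higher on the log2 scale (edgeR adjusted p = 0.00025), at 8.80 to 11.02 against 5.05 to 6.33 CPM. Pms2 shares its strand with Rsph10b over part of its length, so reads of the pair could be split by the counting.

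Smaller differences were found for other members of both break repair routes. Nhej1, which encodes the end joining factor XLF, was 0.61 ± 0.12 higher in cycling cells, Xrcc1, the base excision scaffold, 0.54 ± 0.09, and Parp2 0.56 ± 0.07 (edgeR adjusted p = 0.00155, 0.000354 and 6.73e-05, log2 scale). Ogg1, the 8-oxoguanine glycosylase, was 0.51 ± 0.14 higher, Xrcc6 0.46 ± 0.07, Apex1 0.39 ± 0.05 and Parp1 0.24 ± 0.06, all with an edgeR adjusted p between 5.24e-05 and 0.0129. For Ogg1, 7 of 10 alternative settings kept the call, for Parp1 8 of 10 and for Nhej1 9 of 10.

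Of the members lower in cycling cells, 3 belong to damage recognition in nucleotide excision. Xpc, which finds the distorted helix, was 0.35 ± 0.08 lower on the log2 scale, at 12.4 to 16.7 CPM in cycling and 17.9 to 21.2 CPM in non-cycling cells. Xpa was lower by 0.33 ± 0.07 and Ddb1, the adaptor of a damage-sensing ubiquitin ligase, by 0.21 ± 0.05. Polb, the gap-filling polymerase of base excision, was lower by 0.31 ± 0.06, at 34.1 to 40.9 against 43.7 to 51.4 CPM. The edgeR adjusted p for the 4 genes lay between 0.00148 and 0.00469, and each was lower in 4 of 4 libraries. The other 17 members had an adjusted p of 0.05 or more, among them Nthl1 at 0.25 ± 0.12 (edgeR adjusted p = 0.132).

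**Figure D3:**
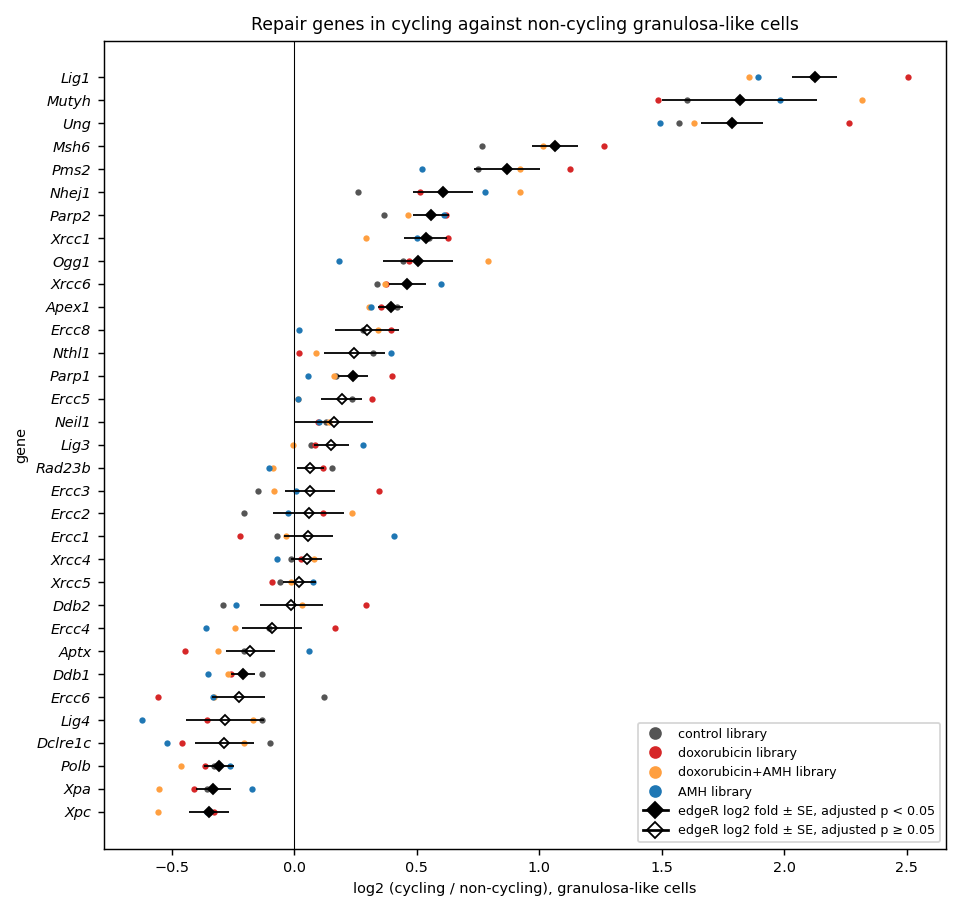
Log2 difference between cycling and non-cycling granulosa-like cells for the 33 genes. Coloured points are the 4 libraries, black diamonds the edgeR estimate with its SE, filled where the adjusted p is under 0.05. Lig1, Mutyh, Ung and Msh6 lie past 1 and Xpc, Xpa and Polb lie lowest.

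The states differed in depth and in cluster, and the part of either in these differences was not tested across states. Median depth was 24017 to 30976 UMIs in cycling and 17431.5 to 22118 in non-cycling cells. The cluster led by Shroom3 held 12.9% of cycling and 42.6% of non-cycling cells, and the cluster led by Hist1h2ae held 17.2% and none. The summed granulosa markers had a median of 55.8 UMIs per 10000 in cycling and 37.4 in non-cycling cells. Theca markers had medians of 5.06 and 3.65, stroma markers 0.334 and 0.346, mural markers 0.342 and 0.466 and surface epithelial markers 0.395 and 0.393. Luteal markers had 0.192 and 0, and the medians of the other 10 lists were 0 in both states.

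Fits inside single clusters were added after the data were seen. Lig1 was higher in cycling cells in all 4 clusters with enough cells, by 1.47 in the cluster led by Inhba, 0.80 in that led by Shroom3, 1.71 in that led by Slc38a5 and 1.77 in that led by Cdh12 on the log2 scale. The edgeR adjusted p was 0.00291 in the cluster led by Shroom3 and between 8.64e-08 and 1.04e-06 in the others. Ung and Msh6 were higher in 3 of the 4, all but the cluster led by Shroom3. There, Lig1 was the sole member of 32 that passed the test, with 1.57% of all genes higher. In the other clusters 4, 3 and 7 members were higher, in the order Inhba, Slc38a5 and Cdh12, with 8.1%, 4.61% and 16.4% of all genes. Of the other higher genes with fits there, Parp1, Parp2, Apex1, Xrcc1 and Pms2 passed in 1 of the 4 clusters each and Nhej1, Ogg1 and Xrcc6 in none. Mutyh was not fitted inside a cluster. None of the 4 lower calls was made inside a cluster either.

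Cycling cells were then split by which list took more of their UMIs, giving 156, 161, 189 and 189 S-type and 697, 758, 891 and 1015 G2/M-type cells. The lists differ in length and their UMIs were compared as they stood, so the names say only which list took more. The cluster led by Hist1h2ae, a histone gene, with other histone genes, Top2a and Rrm2 among its leading genes, held 20.2% of G2/M-type and 7.19% of S-type cells. Of the 33 members, 7 were higher in S-type cells and none lower (10 members at an unadjusted p under 0.05). Over 15252 genes, 6.07% were higher and 6.14% lower. DESeq2 called 3 members higher and none lower (7 at an unadjusted p under 0.05), and 3.47% and 3.3% of all genes.

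Ung stood at 44.3, 44.5, 40.7 and 28.3 CPM in S-type and 15.3, 22.8, 16.2 and 15.2 CPM in G2/M-type cells. The lowest S-type library lay above the highest G2/M-type one, and the log2 difference was 1.21 ± 0.10 (edgeR adjusted p = 4.8e-08). Lig1 stood at 146, 134, 146 and 117 against 99.4, 97.4, 109 and 88.0 CPM, a log2 difference of 0.48 ± 0.05 (edgeR adjusted p = 1.13e-06). Msh6 stood at 42.6, 45.6, 41.4 and 34.3 against 30.9, 34.4, 27.1 and 24.5 CPM, a difference of 0.52 ± 0.07 (edgeR adjusted p = 3.32e-05). For Msh6 the states overlapped between libraries, though it was higher in S-type cells in 4 of 4. These 3 genes kept their call in all 10 alternative settings and in all 3 clusters fitted alone.

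The other 4 calls were less steady. Ddb2, the lesion-binding partner of Ddb1, was 0.46 ± 0.12 higher in S-type cells, Pms2 0.40 ± 0.12, Xrcc5 0.25 ± 0.07 and Apex1 0.18 ± 0.05 (edgeR adjusted p from 0.0162 to 0.0321, log2). They kept the call in 4, 4, 5 and 3 of 10 settings. Without the doxorubicin library, or without the doxorubicin+AMH library, 3 members were higher, beside 3.63% and 3.25% of all genes. So Ung, Lig1 and Msh6 had 3 ordered levels, lowest in non-cycling, higher in G2/M-type and highest in S-type cells.

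**Figure D4:**
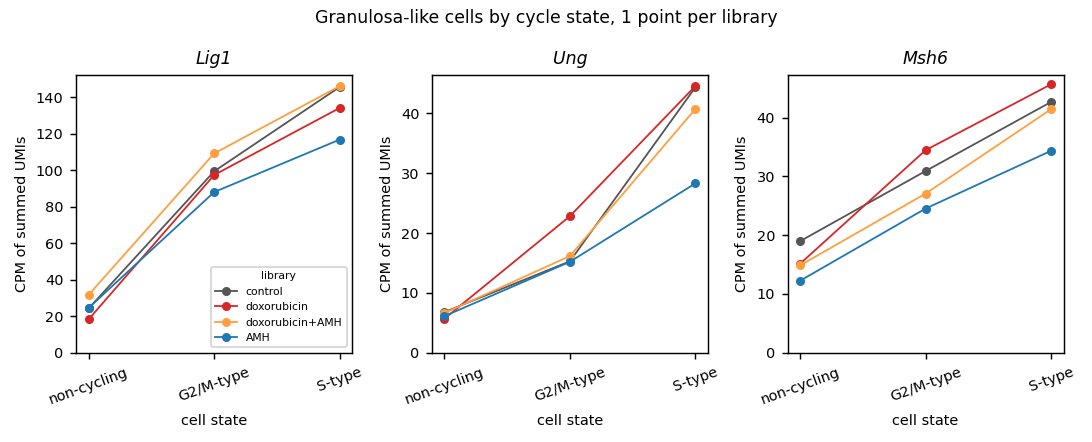
Lig1, Ung and Msh6 level (CPM of summed UMIs) in non-cycling, G2/M-type and S-type granulosa-like cells, 1 line per library. Every line is higher at each step to the right, from 5.70 to 6.80 CPM up to 28.3 to 44.5 CPM for Ung.

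Among the 43 other genes of these pathways, 24 were higher and 4 lower in cycling cells, beside 22.7% and 19.3% of all genes. Neil3 was higher by 5.51, Exo1 by 5.11, Polq by 3.47, Fen1 by 2.69, Rpa2 by 1.52 and Pcna by 1.42 (log2). Neil3 is a glycosylase, Exo1 the mismatch exonuclease, Polq the polymerase of theta-mediated end joining and Fen1 the flap nuclease, while Rpa2 and Pcna serve replication. The lower genes were Parp3 (-1.004), Mnat1 (-0.52), Gtf2h1 (-0.30) and Uvssa (-0.23). In S-type cells 8 were higher and 2 lower, beside 6.07% and 6.14% of all genes. DESeq2 called 4 higher and 1 lower there, beside 3.47% and 3.3%.

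With 1 library per group no treatment was tested, and a fixed ratio of 1.5 in either direction stands in for a call. The contrasts with doxorubicin share no library with each other, nor do those with AMH, but each contrast with doxorubicin shares 1 library with each contrast for AMH. In granulosa-like cells the sum over the 33 genes was 1024, 993, 979 and 935 CPM in the control, doxorubicin, doxorubicin+AMH and AMH libraries. Doxorubicin over control was 0.970 (0.959 to 0.981) and doxorubicin+AMH over AMH 1.05 (1.04 to 1.06), so the contrasts with doxorubicin lay on opposite sides of 1. AMH over control was 0.914 (0.904 to 0.924) and doxorubicin+AMH over doxorubicin 0.986 (0.975 to 0.998). With median-of-ratios scaling in place of total UMIs these became 0.989, 1.06, 0.978 and 1.05, so the last of them crossed 1. Stroma-like cells gave 0.966 (0.948 to 0.984), 1.01 (0.992 to 1.04), 0.935 and 0.982 in the same order, the last at 1.01 with that scaling.

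No member passed a ratio of 1.5 with doxorubicin in granulosa-like cells, in either contrast. Over 14897 genes, 1.8% were that much higher and 1.68% lower in doxorubicin over control, and 1.48% and 4.51% in doxorubicin+AMH over AMH. Beside shares this small, a count of 0 among 33 genes does not set the members apart. The members' median log2 ratios were -0.03 and 0.00, beside -0.02 and -0.02 over all genes. The 43 other repair genes also had none past 1.5, with medians of 0.03 and 0.05. Of the 26 p53 targets, 9 were past it in the first contrast and 4 in the second. Cdkn1a, the p53-driven cell cycle inhibitor, stood at 11.9, 38.2, 22.8 and 15.3 CPM.

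In stroma-like cells, too, none of the 32 members that passed the UMI filter was past 1.5 in either contrast with doxorubicin, beside 0.488% of 13328 genes higher and 1.04% lower in the first and 1.16% and 1.37% in the second. Medians were -0.04 and 0.01. The p53 targets had medians of 0.55 and 0.22, with 11 and 7 of 25 past 1.5. In Clec3b fibroblast-like cells, the class with the highest p53 target median (2.67 in doxorubicin over control, 18 of 20 past 1.5), the 13 members that passed the filter had a median of -0.05. In doxorubicin+AMH over AMH the p53 targets there had a median of 0.15, with 4 of 20 past 1.5 higher, and the members one of 0.10. The genes Ddb2 and Xpc are known p53 targets in human cells. In granulosa-like cells Ddb2 stood at 9.80, 10.2, 8.42 and 8.84 CPM and Xpc at 19.0, 18.9, 14.1 and 15.8 CPM, neither of them higher by more than its counting error with doxorubicin over the whole class. In cycling cells Ddb2 stood at 9.19, 11.6, 8.93 and 8.51 CPM, with doxorubicin over control at 1.26 (1.08 to 1.46) and doxorubicin+AMH over AMH at 1.05 (0.903 to 1.22). The first ratio left out 1 in S-type and G2/M-type cells as well, at 1.53 (1.08 to 2.18) and 1.249 (1.051 to 1.485), and held it in non-cycling cells, at 0.841 (0.584 to 1.21). Xpc in cycling cells stood at 16.7, 16.0, 12.4 and 14.01 CPM, with ratios of 0.956 (0.849 to 1.07) and 0.882 (0.781 to 0.995).

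**Figure D5:**
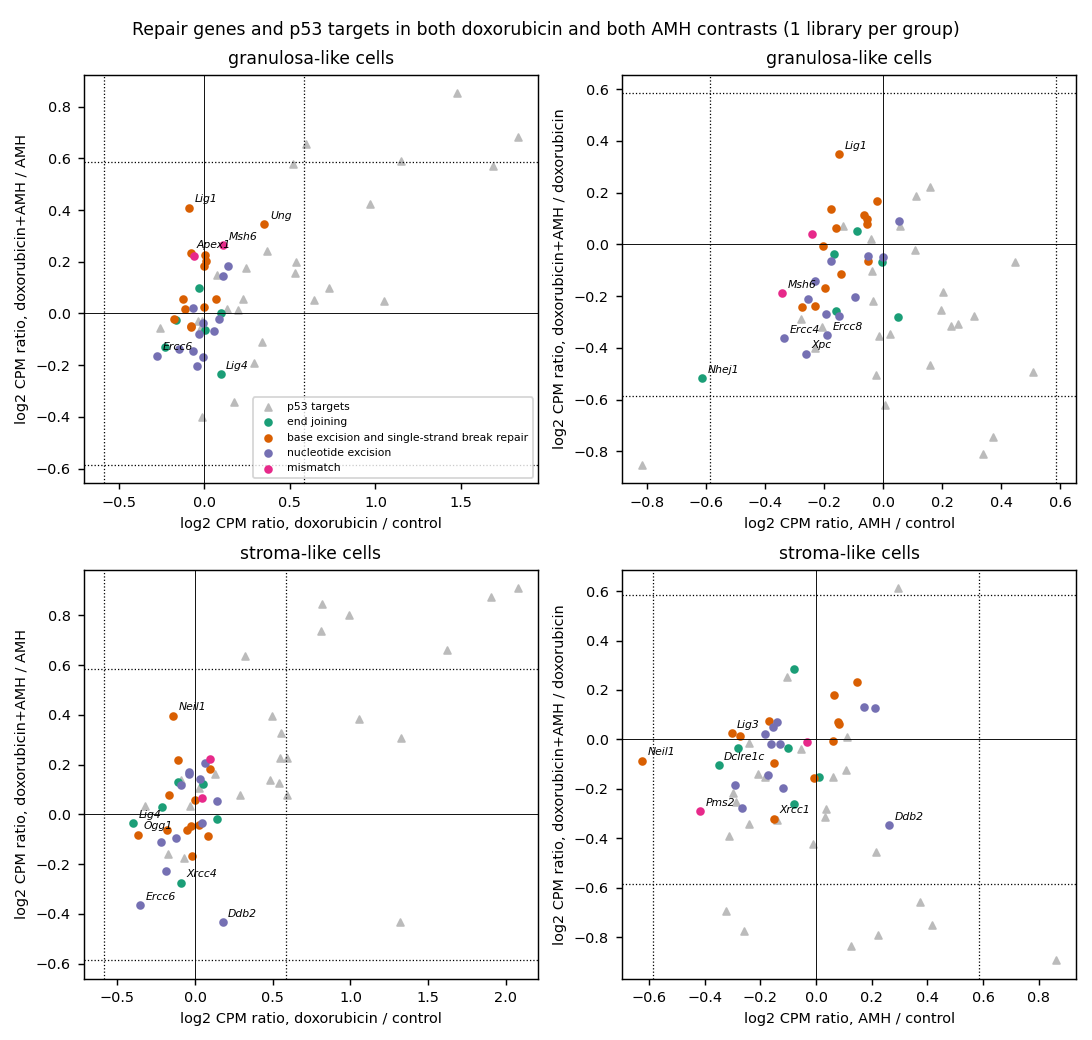
Log2 CPM ratios of the repair genes (coloured by role) and p53 targets (grey triangles) in granulosa-like (top) and stroma-like cells (bottom). The left panels set doxorubicin over control against doxorubicin+AMH over AMH, the right panels AMH over control against doxorubicin+AMH over doxorubicin, and dotted lines mark 1.5-fold. The repair genes gather near 0 in the left panels while p53 targets extend to the right, and Nhej1 lies lowest of them at top right.

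Within those limits, 5 members lay on the same side of 1 beyond counting error in both granulosa-like contrasts with doxorubicin. They were 3 above and 2 below, beside 8.92% and 12% of all genes, and in stroma-like cells none above and 1 below, beside 3.47% and 2.9%. Ung stood at 15.1 CPM in the control, 19.3 in the doxorubicin, 16.4 in the doxorubicin+AMH and 12.9 in the AMH library. Its ratios were 1.28 (1.17 to 1.39) and 1.27 (1.16 to 1.39), and 1.27 and 1.27 without the pair of clusters that came from the doxorubicin library. With each cluster given the same weight in every library, the second ratio was 1.11. Msh6 stood at 26.7, 28.8, 25.3 and 21.0 CPM, with ratios of 1.08 (1.01 to 1.15) and 1.20 (1.12 to 1.29). Ercc5, the nuclease that cuts on one side of a bulky lesion, stood at 20.9, 23.0, 19.9 and 17.5 CPM, with 1.10 (1.02 to 1.19) and 1.14 (1.05 to 1.23). In all of these the AMH library was lowest.

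In cycling cells the Ung ratios were 1.36 (1.23 to 1.49) for doxorubicin over control and 1.19 (1.08 to 1.32) for doxorubicin+AMH over AMH. They were then read in G2/M-type and S-type cells apart, without a test of the difference between states. In G2/M-type cells doxorubicin over control was 1.49 (1.32 to 1.69) and in S-type cells 1.01 (0.829 to 1.22). Of the 758 G2/M-type cells of the doxorubicin library, 110 and 55 came from the pair of clusters found almost only there, and without them these ratios were 1.48 (1.305 to 1.675) and 1.02 (0.843 to 1.24). For doxorubicin+AMH over AMH it was 1.06 (0.941 to 1.20) in G2/M-type and 1.44 (1.17 to 1.78) in S-type cells. In non-cycling cells both intervals held 1, from 35 to 43 UMIs per library. The share of cycling cells also differed: 47.0% (44.7 to 49.2, exact Clopper-Pearson) in the control, 52.1% (49.8 to 54.4) in the doxorubicin, 58.2% (56.0 to 60.4) in the doxorubicin+AMH and 53.8% (51.8 to 55.9) in the AMH library. How far these shares set the class level of Ung, Lig1 and Msh6 was not tested.

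Ercc6 and Ercc3 were lower in both contrasts. Ercc6, the transcription-coupled repair factor CSB, stood at 17.5, 14.4, 13.8 and 15.5 CPM in granulosa-like cells, with ratios of 0.825 (0.754 to 0.902) and 0.892 (0.816 to 0.976). It was lower in stroma-like cells as well, at 20.2, 15.8, 13.1 and 16.8 CPM, with ratios of 0.782 (0.691 to 0.885) and 0.777 (0.665 to 0.907). There the control library was highest and the doxorubicin+AMH library lowest. Mural smooth muscle-like cells went the other way for Ercc6, at 13.7, 18.2, 18.5 and 15.1 CPM, with ratios of 1.33 (1.07 to 1.65) and 1.22 (1.003 to 1.496). The mural class joined 3 clusters in unequal parts, and the one led by Des gave 201 of its cells in the control, 20 in the doxorubicin, 55 in the doxorubicin+AMH and 186 in the AMH library. Inside the mural cluster led by Acta2 the Ercc6 ratios were 1.46 (1.14 to 1.86) and 1.24 (1.002 to 1.55). In theca-like cells both intervals held 1. When stroma-like cells were chosen cell by cell from their markers instead of by cluster, the second ratio was 1.02. Ercc3, a helicase of TFIIH, stood at 14.8, 13.4, 13.0 and 14.3 CPM in granulosa-like cells, with 0.904 (0.822 to 0.994) and 0.908 (0.827 to 0.997). In stroma-like cells its ratios were 0.879 and 0.853, with intervals that held 1. Nhej1 also lay below 1 in both granulosa-like contrasts, at 0.854 (0.780 to 0.934) and 0.913 (0.821 to 1.01).

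Lig1, Parp1 and Apex1 lay on opposite sides of 1 in the 2 contrasts beyond counting error, as did 8.14% of all genes. Lig1 in granulosa-like cells stood at 71.6, 67.3, 85.8 and 64.6 CPM. Doxorubicin over control was 0.940 (0.901 to 0.981) and doxorubicin+AMH over AMH 1.33 (1.28 to 1.38). The doxorubicin+AMH library was highest. Within cycling cells the ratios were 0.989 (0.945 to 1.04) and 1.26 (1.21 to 1.31), and within non-cycling cells 0.756 (0.588 to 0.970) and 1.29 (1.04 to 1.61). Apex1 stood at 84.8, 80.3, 88.1 and 75.0 CPM and Parp1 at 115, 106, 115 and 110 CPM, with second ratios of 1.18 (1.13 to 1.22) and 1.04 (1.01 to 1.07).

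The contrasts for AMH leaned downward in granulosa-like cells. AMH over control was below 1 for 31 of 33 members and for 9991 of 14897 genes, with medians of -0.16 and -0.09. Its interval lay below 1 for 20 members and 6295 genes. Beside those medians, the p53 targets stood at 0.08 and the other repair genes at -0.04. Doxorubicin+AMH over doxorubicin had medians of -0.07 for the members and -0.08 for all genes. In both contrasts the interval lay below 1 for 12 members: Xrcc5, Nhej1, Polb, Ung, Msh6 and 7 nucleotide excision genes, Xpa, Xpc, Ercc2, Ercc4, Ercc5, Ercc8 and Rad23b. The share of all genes was 24.9%. No member had both intervals above 1, beside 7.94% of genes, and 3 (Lig1, Parp1 and Apex1) had them on opposite sides, beside 6.31%. Ercc1, the partner of Ercc4 in the second incision, was the one with both ratios above 1, at 1.04 (0.958 to 1.13) and 1.07 (0.981 to 1.16).

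Nhej1 was the one member past 1.5 in granulosa-like cells, in AMH over control, where 7.16% of all genes were that much lower and 2.2% higher. It stood at 17.03 CPM in the control, 14.5 in the doxorubicin, 10.2 in the doxorubicin+AMH and 11.1 in the AMH library. Both AMH libraries lay below both others. AMH over control was 0.654 (0.597 to 0.716) and doxorubicin+AMH over doxorubicin 0.699 (0.630 to 0.776), the latter short of 1.5, where 9.83% of genes were past it lower and 2.15% higher and no member was. Over 8 alternative settings the AMH over control ratio lay between 0.631 and 0.732, past 1.5 in 3 of them.

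By cycle state, the AMH over control ratio of Nhej1 was 0.654 (0.583 to 0.733) in cycling, 0.457 (0.315 to 0.654) in non-cycling, 0.524 (0.376 to 0.725) in S-type and 0.707 (0.622 to 0.803) in G2/M-type cells. Doxorubicin+AMH over doxorubicin ranged from 0.478 (0.307 to 0.730) in non-cycling to 0.640 (0.436 to 0.936) in S-type cells. By cluster the values differed, without a test of that difference. They were 0.447 (0.366 to 0.544) and 0.642 (0.524 to 0.782) in the cluster led by Cdh12, whose leading genes include Amh itself, and 0.731 (0.575 to 0.929) and 0.699 (0.543 to 0.899) in that led by Slc38a5. In the clusters led by Inhba, Shroom3 and Hist1h2ae the intervals of both contrasts held 1. The mix of clusters differed between the libraries. The cluster led by Cdh12 had 442, 399, 231 and 300 cells and that led by Inhba 405, 395, 628 and 729 in the control, doxorubicin, doxorubicin+AMH and AMH libraries. With equal cluster weights the 2 ratios of Nhej1 were 0.6995 and 0.780, both short of 1.5. In stroma-like cells Nhej1 stood at 9.06, 10.0, 9.01 and 9.13 CPM, with AMH over control at 1.01 (0.833 to 1.22). Nhej1 lies at chr1:74967139-75125200 (GRCm38, minus strand).

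Of the 12 members with both AMH intervals below 1, 7 belong to nucleotide excision. Ercc4, a subunit of the incision nuclease, stood at 10.5, 10.4, 8.10 and 8.31 CPM in granulosa-like cells, with AMH ratios of 0.793 (0.710 to 0.886) and 0.777 (0.690 to 0.876). Xpc gave 0.835 (0.770 to 0.905) and 0.746 (0.682 to 0.816), and Rad23b, which stabilises Xpc, 0.853 (0.823 to 0.883) and 0.907 (0.873 to 0.941). Neither AMH library overlapped the other libraries for Ercc4, Xpc or Rad23b. In mismatch repair, Msh6 was at 0.789 (0.736 to 0.846) and 0.878 (0.820 to 0.941). Summed by role in granulosa-like cells, AMH over control was 0.804 for the mismatch genes, 0.892 for end joining, 0.922 for base excision and 0.923 for nucleotide excision. Doxorubicin+AMH over doxorubicin was 0.914 (0.861 to 0.970), 0.923 (0.895 to 0.952), 1.08 (1.06 to 1.09) and 0.915 (0.899 to 0.933) in the same order, so base excision lay on opposite sides of 1 in the 2 contrasts.

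In stroma-like cells AMH over control had a median of -0.13 over 32 members and -0.08 over all genes. Neil1, a glycosylase of oxidised bases, was the one member past 1.5, at 3.42, 3.101, 2.92 and 2.22 CPM and 0.649 (0.448 to 0.927), with 3.17% of genes that much lower and 1.41% higher. It was short of 1.5 with median-of-ratios scaling (0.688), with cells chosen by their markers (0.819) and with a pseudocount of 5 CPM (0.857). In doxorubicin+AMH over doxorubicin no member was past 1.5, with 1.4% of genes higher and 1.8% lower. Xpc, Ercc6 and Pms2 lay below 1 beyond counting error in both AMH contrasts, beside 14.5% of genes, and none lay above, beside 5.08%. Pms2 stood at 8.37, 8.94, 7.30 and 6.27 CPM, with 0.749 (0.601 to 0.929) and 0.817 (0.670 to 0.995). Xpc stood at 24.3, 20.9, 18.4 and 19.9 CPM, highest in the control library. Ung, lower with AMH in granulosa-like cells, stood at 7.26, 7.77, 9.13 and 8.04 CPM in stroma-like cells, with ratios of 1.11 (0.901 to 1.36) and 1.18 (0.970 to 1.42). Ercc8, a transcription-coupled repair factor, gave 1.16 and 1.09 and Ercc2, the other TFIIH helicase, 0.894 and 0.988 there, with intervals that held 1.

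Across the 7 classes with at least 50 cells per library, 153 pairs of a member and a class passed the UMI filter. In doxorubicin over control 1 pair was past 1.5 higher and 4 lower, beside 1.95% and 2.97% of the 68804 such pairs of any gene. In doxorubicin+AMH over AMH 5 were higher and 1 lower (2.33% and 3.58% of all pairs), in AMH over control 1 and 8 (3.79% and 6.18%), and in doxorubicin+AMH over doxorubicin 7 and 4 (4.68% and 7.33%). None of these counts is read as particular to the members. All but Nhej1 and Neil1 lay in the 5 other classes.

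In theca-like cells AMH over control and doxorubicin+AMH over doxorubicin compared mostly different clusters, so these class values cannot be told apart from that shift. The dissociation stress genes had a median log2 ratio of 0.72 in the first and 0.45 in the second, with 10 and 6 of 19 past 1.5. Rad23b stood at 100, 93.2, 76.8 and 66.8 CPM, at 0.667 (0.618 to 0.719) in AMH over control, past 1.5 in 2 of 8 settings. Lig4, the end joining ligase, stood at 4.32, 3.53, 2.12 and 2.62 CPM, at 0.606 (0.406 to 0.889), which became 1.01 with equal cluster weights. These 2 were past 1.5 lower, beside 12.5% of 11606 genes. In doxorubicin over control 1 member, Ercc8, was past it, at 4.1001 and 2.20 CPM (0.537, 0.358 to 0.790), beside 1.34% of genes lower. In doxorubicin+AMH over doxorubicin Lig1 (1.55), Dclre1c (1.55) and Ercc8 (2.04) were higher, beside 10.9% of genes, and Lig4 (0.601) lower, beside 13.3%. No member was past it where 1.6% of genes were higher in doxorubicin over control, 1.46% higher and 2.53% lower in doxorubicin+AMH over AMH and 12.3% higher in AMH over control.

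In blood endothelial-like cells Xrcc6 was higher in both contrasts with doxorubicin. It stood at 39.1, 60.4, 58.6 and 33.5 CPM, so both doxorubicin libraries lay above both others, with 1.54 (1.21 to 1.97) and 1.75 (1.24 to 2.45). Over the alternatives the first ratio ranged from 1.21 to 1.67. Past 1.5 higher lay 0.976% of 6761 genes in the first contrast and 5.87% in the second. The share of all genes with both intervals above 1 was not counted for this class. Xrcc6 was 1 of 10 members that passed the UMI filter, and the doxorubicin+AMH library had 60 of these cells. Lig1 stood at 61.3, 51.0, 34.8 and 21.2 CPM, and AMH over control was 0.345 (0.255 to 0.462), the lowest ratio of any pair, beside 7.85% of genes. Doxorubicin+AMH over AMH for Lig1 was 1.64 (1.05 to 2.54). Xpc stood at 21.6, 30.0, 14.9 and 23.6 CPM, past 1.5 lower in doxorubicin+AMH over AMH (0.631, 0.335 to 1.12, beside 5.53%) and over doxorubicin (0.497, 0.264 to 0.878, beside 5.16%), from 15 UMIs in that library. No member was lower in doxorubicin over control (2.13% of genes), higher in AMH over control (4.56%) or higher in doxorubicin+AMH over doxorubicin (4.1%).

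Xrcc6 was also the member with the largest ratio in Clec3b fibroblast-like cells. It stood at 29.4, 25.1, 52.8 and 34.6 CPM, at 2.11 (1.53 to 2.90) in doxorubicin+AMH over doxorubicin and 1.53 (1.13 to 2.06) over AMH. In the first of these Apex1 (1.64) and Ercc1 (1.63) were also past 1.5 higher, beside 11.4% of 6878 genes, and Ercc5 (0.563) lower, beside 9.9%. In the second 5.47% of genes were past it. Ercc1 was lower in doxorubicin over control (0.624, beside 11.3%). In AMH over control Xrcc5 was higher (1.57, beside 1.42%) and Ercc5 lower (0.608, beside 3.85%). These rest on 30 to 111 UMIs per library. No member was past 1.5 higher in doxorubicin over control, as 6.69% of genes were, or lower in doxorubicin+AMH over AMH, as 4.41% were.

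In mural smooth muscle-like cells Ung stood at 4.71, 6.32, 5.40 and 3.23 CPM and Ercc4 at 9.95, 9.64, 10.6 and 6.31 CPM. For both the AMH library was lowest. Doxorubicin+AMH over AMH was 1.67 (1.11 to 2.54) for Ung and 1.68 (1.26 to 2.26) for Ercc4, beside 1.43% of 11377 genes. AMH over control for Ercc4 was 0.634 (0.474 to 0.844), beside 3.14% lower. With equal cluster weights the second ratio of Ung was 1.49, short of 1.5. Inside the cluster led by Acta2 the 2 Ercc4 ratios were 1.47 (1.07 to 2.03) and 0.662 (0.477 to 0.916), while the cluster led by Des made up unequal parts of the libraries, as given above for Ercc6. In doxorubicin over control (1.23% of genes higher, 3.33% lower) and doxorubicin+AMH over doxorubicin (1.42% and 3.16%) no member was past 1.5. Nor was any lower in doxorubicin+AMH over AMH (2.99%) or higher in AMH over control (0.94%).

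In macrophage-like cells Parp1 was low in the doxorubicin library. It stood at 50.4, 21.6, 63.2 and 44.4 CPM from 78, 16, 67 and 72 UMIs. Doxorubicin over control was 0.429 (0.234 to 0.740), doxorubicin+AMH over AMH 1.42 (1.01 to 2.02) and doxorubicin+AMH over doxorubicin 2.93 (1.68 to 5.41), which was 1.36 with each cell weighted equally. Rad23b was lower in the first of these too, at 0.627 (0.392 to 0.973), beside 5.08% of 3957 genes. For higher ratios in the last contrast the background was 5.76% of genes. Polb stood at 49.1, 62.1, 34.0 and 38.8 CPM, at 0.547 (0.344 to 0.865) in doxorubicin+AMH over doxorubicin, beside 10.2% lower. Dclre1c was the one member past 1.5 in AMH over control, beside 3.94% lower and 3.79% higher. None was higher in doxorubicin over control (4.02%), or past 1.5 in doxorubicin+AMH over AMH (3.08% higher, 7.53% lower).

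In granulosa-like cells Aptx, the enzyme that clears abortive ligation ends, lay between 13.5 and 15.2 CPM, Nthl1 between 7.52 and 8.70 CPM, Neil1 between 3.90 and 4.30 CPM and Lig4 between 3.77 and 4.58 CPM. Lig3 lay between 31.8 and 34.4 CPM, Parp2 between 31.2 and 35.5 CPM and Ddb1 between 128 and 136 CPM. The Ku subunit Xrcc5 stood at 32.9, 35.2, 29.5 and 29.5 CPM and Xrcc4 at 48.7, 43.4, 45.1 and 45.8 CPM.

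Counting may mix overlapping genes. Of the 33 members, 14 overlap a gene on the other strand, 1 shares its strand with another gene and 19 overlap none. Whether the counting used strand is not given in the sources used here. Over Lig1 lies Zswim9, at 4.70 to 5.98 CPM in granulosa-like cells and 0.16 ± 0.20 higher in cycling cells (log2, edgeR adjusted p = 0.563). Over Msh6 lies Fbxo11, at 133 to 159 CPM and lower in cycling cells by 0.28 ± 0.05 (edgeR adjusted p = 0.000359).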

How the data were processed

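Single-cell libraries of 3′ transcript ends (Chromium v3.1 chemistry, NovaSeq, per the labels' protocols) were made from 4 pools of ovaries. The deposited tables hold raw UMI counts per gene and cell. Per the file headers, Cell Ranger 7.0.0 produced them. The submitters' processing notes name the mm10 build, R 4.2.0 and Seurat 4.1.0. Whether intronic reads were counted, and whether strand was used, is not given in the sources used here.

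From these counts, cells below 1000 UMIs or above 20% mitochondrial UMIs were left out. Per library, 366 to 648 cells with the highest doublet scores were then removed (0.8% per 1000 cells), since the automatic threshold marked 0 cells in 2 libraries. Cells of all libraries were clustered together (scanpy 1.11.5, leidenalg 0.10.2, 2000 variable genes without the listed genes, 30 components, resolution 1). A cluster was named where at least 50% of a marker list, and 3 markers, exceeded the median cluster by 1 or more on the log2 scale. Markers also had to be seen in a share of 0.1 of its cells. A cluster stayed unnamed if its depth was below 0.333 of the library median and no leading gene was a marker of its class. It also did if another class had more markers among its leading genes. So the clusters led by Unc5c and Ube2c, with 6 and 8 of 9 granulosa markers, and by Sct, with 6 of 6 theca markers, were left out. These naming thresholds were set after seeing the data, and no batch correction was used. UMIs were summed per class and library and divided by the class total (CPM). Ratios carry exact conditional binomial 95% intervals, need at least 200 UMIs over the libraries and no pseudocount.

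Cycle states were compared with edgeR 4.0.16 (quasi-likelihood, TMM, filterByExpr, library as block, Benjamini-Hochberg over all genes), with DESeq2 1.42.0 as an alternative. Tested on simulated data, the cycling fit over 15807 genes recovered 73.3% of 90 genes changed 1.5-fold, and the S-type fit over 15333 genes 72.1% of 104. The simulation changed far fewer genes than the data did and held no difference in clusters between the states. These rates need not hold for the real comparison. The levels by cycle state and library, also without the pair of clusters found almost only in 1 library, were added after seeing the data. Promoters are RefSeq (GRCm38.p6) and loci GENCODE on GRCm38.

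The members and the lists of other repair genes, p53 targets, stress genes, cycle genes and cell markers were chosen with earlier results of these data known. Members were named by rule where past 1.5-fold in a class of at least 50 cells per library. Others named were the 3 highest and 3 lowest on the same side in both doxorubicin or both AMH contrasts in granulosa-like and stroma-like cells. The rule also took the 2 most abundant of each role group (an order of CPM that served only this choice). Members past an adjusted p of 0.05 in the cycle tests were named too. Values in every library are given for many of these, and for the rest a ratio, a range or a mean alone.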

Additional observations from a re-analysis of the deposited data

Results flagged for a closer look

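Parp1 in macrophage-like cells lay on opposite sides of 1 in the contrasts with doxorubicin: 0.429 in doxorubicin over control and 1.42 in doxorubicin+AMH over AMH, with intervals of 0.234 to 0.740 and 1.01 to 2.02. With 1 library per group the difference between these contrasts was not tested. The doxorubicin value rests on 16 Parp1 UMIs from 90 cells.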

How the results depend on the processing

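Sums over the 33 genes in granulosa-like cells depended on the scaling. Doxorubicin over control was 0.989 with median-of-ratios scaling. Doxorubicin+AMH over AMH was 1.03 with each cell weighted equally, and 1.06 both with that scaling and with cells chosen by markers. AMH over control was 0.952 with equal weights, 0.978 with that scaling and 0.939 with clusters standardised to a common mix. Doxorubicin+AMH over doxorubicin was 1.01, 1.05 and 1.000 in the same order. In stroma-like cells that scaling gave 0.992 for AMH over control and 1.01 for doxorubicin+AMH over doxorubicin.

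At a threshold of 0.32 on the log2 scale in place of 0.58, in the order doxorubicin over control, doxorubicin+AMH over AMH, AMH over control and doxorubicin+AMH over doxorubicin, granulosa-like cells had 1, 2, 3 and 5 members past it and stroma-like cells 3, 3, 3 and 1. Of all genes 12.5%, 19.2%, 24.2% and 27.4% were past it in the former and 8.04%, 10.5%, 18.1% and 12.7% in the latter. The granulosa-like count of 1 in AMH over control was 0 with a mitochondrial limit of 10%, equal weights, median-of-ratios scaling, standardised clusters or a pseudocount of 5 CPM. In stroma-like cells it was 0 with that scaling, the marker choice or the pseudocount, and equal weights gave 1 in doxorubicin+AMH over AMH. Lig4 in theca-like cells reached 1.01 in AMH over control with standardised clusters.

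Within single clusters (Inhba, Shroom3, Slc38a5, Cdh12) 4, 1, 3 and 7 members were higher in cycling cells, beside 8.1%, 1.57%, 4.61% and 16.4% of all genes. Lower were 0, 0, 0 and 1 members, beside 5.31%, 0.299%, 2.5% and 15.3% of all genes. The direction turned for Xpc (0.029), Xrcc1 (-0.10) and Ddb1 (0.019) with Inhba, Parp2 (-0.077) and Apex1 (-0.024) with Shroom3, and Ddb1 (0.10) with Cdh12 (log2). For S-type cells 3 members were higher with DESeq2 (3.47% of all genes), 3 without the library block (0.295%), 4 from 3 thinned UMIs (2.37%), 3 within each of the Inhba and Cdh12 clusters (1.23% and 1.05%), and 3 to 6 with a library left out (3.08% to 5.53%). The cause of these changes was not tested. Of 584 alternative values of single ratios, 513 were labelled the same, 60 weaker, 9 moved, 1 stronger and 1 reversed. Many of these ratios were short of the fixed ratio that stands in for a call. They had no call to lose, so 513 is not a count of calls kept. Every weaker or reversed value belonged to a ratio that was past it. In the cycle tests 226 of 311 values kept their call, 79 were weaker and 6 reversed. No paired analysis was possible because the groups share fewer than 2 replicate numbers, and an additive model of both treatments over the 4 libraries was not fitted. Depth limits the smaller classes, and the choice of cells by markers gave no Clec3b fibroblast-like value.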

Other observations

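Partners of the members, from the list of other repair genes, were read in granulosa-like cells. Prkdc, the kinase that Ku recruits to broken ends, stood at 31.9, 31.7, 25.7 and 26.7 CPM in the control, doxorubicin, doxorubicin+AMH and AMH libraries, lower in both AMH libraries. Paxx, an end joining factor related to Xrcc4 and Nhej1, stood at 7.83, 9.46, 8.37 and 7.15 CPM, higher in both contrasts with doxorubicin. Neil2, a glycosylase of oxidised bases, stood at 9.89, 9.69, 6.96 and 7.10 CPM, with 0.718 in both AMH contrasts. Polq, which joins ends by short homologies, stood at 5.25, 3.56, 5.07 and 4.48 CPM, lowest in the doxorubicin library at 0.678 of the control. These 4 are examples from the list of 43, given without intervals. In these cells 8.92% of all genes had both doxorubicin intervals above 1 and 24.9% both AMH intervals below 1.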
